A study of Homo sapiens with 12 samples.

Results

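Cadherins, vimentin, fibronectin and the transcription factors of epithelial-mesenchymal transition (EMT) were described by their RNA levels in sorafenib-resistant and parental liver cancer cells. The 9 genes were CDH1, CDH2, VIM, FN1, ZEB1, ZEB2, SNAI1, SNAI2 and TWIST1, chosen by their gene symbols. Rows for 8 of them were found among the 27249 Ensembl gene rows of each table, and TWIST1 was not analysed here. The samples came from Huh7 and HepG2, established human liver cancer lines that the labels call hepatocellular carcinoma cells of WT genotype. Each line was sequenced as parental cells, labelled with no treatment, and as cells made resistant to sorafenib, a kinase inhibitor used against liver cancer, with 3 samples in each of the 4 groups. Resistant cells were what survived and kept growing after 24 h pulses of sorafenib, starting at 10 μmol and raised over 8 months. Whether the drug was present at harvest, whether the resistant cells were clones and whether the 3 samples of a group were separate cultures is not stated in the labels, so that p-values measure only the spread between these samples, which may be technical.

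In EMT, epithelial cells lose the junctions that hold them to their neighbours and take on the shape and motility of mesenchymal cells. E-cadherin (CDH1) is the adhesion protein of epithelial adherens junctions, and N-cadherin (CDH2) is its relative in neural and mesenchymal cells and also in hepatocytes. Vimentin (VIM) is the intermediate filament of mesenchymal cells, and fibronectin (FN1) is a matrix glycoprotein that mesenchymal cells assemble and that hepatocytes secrete into plasma. ZEB1, ZEB2, SNAI1, SNAI2 and TWIST1 encode DNA-binding factors known as repressors of CDH1 or as inducers of EMT. The ZEB and SNAI proteins bind E-box motifs through zinc fingers, and TWIST1 is a basic helix-loop-helix protein.

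The values were treated as FPKM, fragments scaled by exon length and library size, which compare genes per length. Their unit is not stated. The depth inferred from the values was 12290108 to 19286014 reads per sample. The sums of 10 hepatocyte and liver cancer markers lay between 4986 and 9879 FPKM, with all 10 at 1 FPKM or more in every group. The sums of 10 fibroblast and stellate cell markers were 2.41 to 6.21 FPKM and those of 10 leukocyte and endothelial markers 3.39 to 11.9 FPKM. Within groups, the correlation of log2(FPKM + 1) between samples was 0.981 to 0.991. Bulk RNA cannot tell fewer cells that express a gene from less RNA per cell. For a line's 6 samples, a gene was tested with limma on log2(FPKM + 1) if 3 or more had no less than 1 FPKM, and was called if the Benjamini-Hochberg adjusted p-value was under 0.05 and the log2 fold change beyond 1. Of all tested genes, 22.6% were called in Huh7 (8.59% higher and 14% lower in resistant cells) and 6.27% in HepG2 (3.29% higher and 2.98% lower).

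Against that background, 5 of the 8 genes were tested in Huh7, of which CDH1 and SNAI1 were called higher and ZEB1 lower in resistant cells. In HepG2, 4 were tested, and SNAI1 alone was called, in the opposite direction. In Huh7, the resistant and parental samples did not overlap for any of the 5 tested genes, against 74.5% of all tested genes, with 3 above and 2 below the parental samples. Of the 3 genes under the filter, VIM and SNAI2 also lay below without overlap. In HepG2, 2 of the 4 tested genes, CDH2 and SNAI1, lay below the parental samples without overlap, against 40.4% of all tested genes, and no gene lay above.

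**Figure D1:**
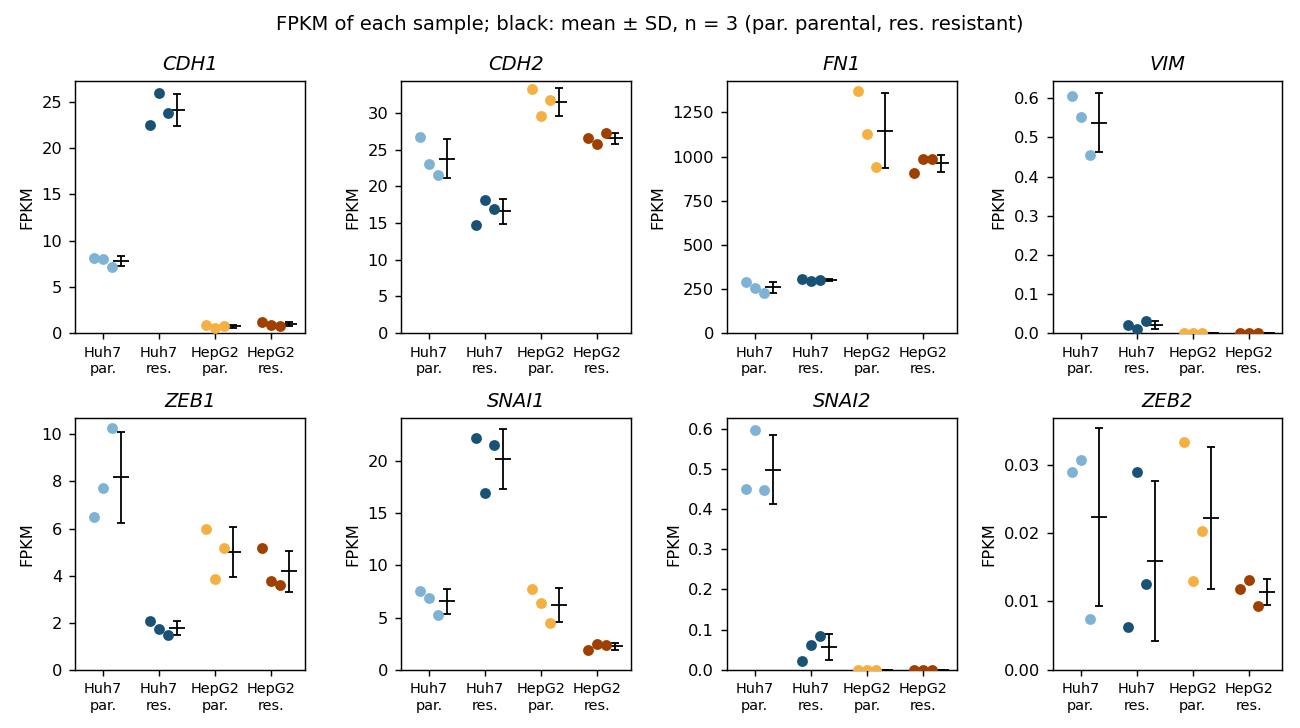
FPKM of the 8 genes in each of the 12 samples (points), with the group mean and SD in black (n = 3); every panel has its own linear axis from 0. In Huh7, CDH1 and SNAI1 are higher and ZEB1, VIM and SNAI2 lower in the resistant samples, whereas in HepG2 only SNAI1 and CDH2 have groups that do not overlap.

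CDH1 (ENSG00000039068, GRCh38 chr16:68737225-68835548, plus strand) was called higher in resistant Huh7. In Huh7, the 3 resistant samples had 22.6, 26.0 and 23.8 FPKM and the 3 parental samples 8.17, 8.04 and 7.15 FPKM. Every resistant sample was above every parental one, and the gap was many times the spread within either group. The means were 24.1 ± 1.75 and 7.79 ± 0.555 FPKM (SD, n = 3), a log2 fold change of 1.51 (SE 0.105, adjusted p = 1.92e-05). In HepG2, CDH1 was near the filter, with 1.21, 0.859 and 0.800 FPKM in resistant and 0.826, 0.540 and 0.813 FPKM in parental cells. These groups overlapped, and only 1 of the 6 samples reached 1 FPKM, so that the gene was not tested on log2(FPKM + 1). On reads calculated back from the FPKM, with no filter, limma-voom gave a log2 fold change of 0.40 (SE 0.294, adjusted p = 0.434), in a fit that called 7.69% of genes. In a limma-voom fit of both lines, the change in Huh7 exceeded that in HepG2 by 1.17 (SE 0.294, adjusted p = 0.00339). That test was passed by 8457 genes at an adjusted p under 0.05.

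CDH2 (ENSG00000170558, chr18:27950966-28177446, minus strand) was present in both lines. In Huh7, it had 14.8, 18.1 and 16.9 FPKM in resistant and 26.7, 23.1 and 21.6 FPKM in parental cells. In HepG2, the values were 26.7, 25.8 and 27.3 FPKM in resistant and 33.3, 29.6 and 31.8 FPKM in parental cells. In both lines all resistant samples were below all parental ones, but by less than the threshold of a 1 log2 change. An adjusted p under 0.05 alone was reached by 70.1% of genes in Huh7 and 20% in HepG2. The log2 fold change was -0.49 in Huh7 (SE 0.122, adjusted p = 0.00639) and -0.24 in HepG2 (SE 0.125, adjusted p = 0.21), and their difference of -0.26 did not pass the test (SE 0.159, adjusted p = 0.187).

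The ratio of CDH1 to CDH2 within a sample is free of library scaling and summarises the cadherin balance. In Huh7, it was 1.53, 1.44 and 1.40 in resistant and 0.306, 0.348 and 0.331 in parental samples. CDH1 thus exceeded CDH2 in each resistant sample and was below CDH2 in each parental one, a 4.43-fold difference in the ratio. In HepG2, the ratio was 0.0455, 0.0333 and 0.0293 in resistant and 0.0248, 0.0183 and 0.0255 in parental samples, a 1.56-fold difference with CDH2 far above CDH1 throughout. The exact permutation test gave p = 0.1 in each line, two-sided, which is the smallest value that 3 samples against 3 allow.

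**Figure D2:**
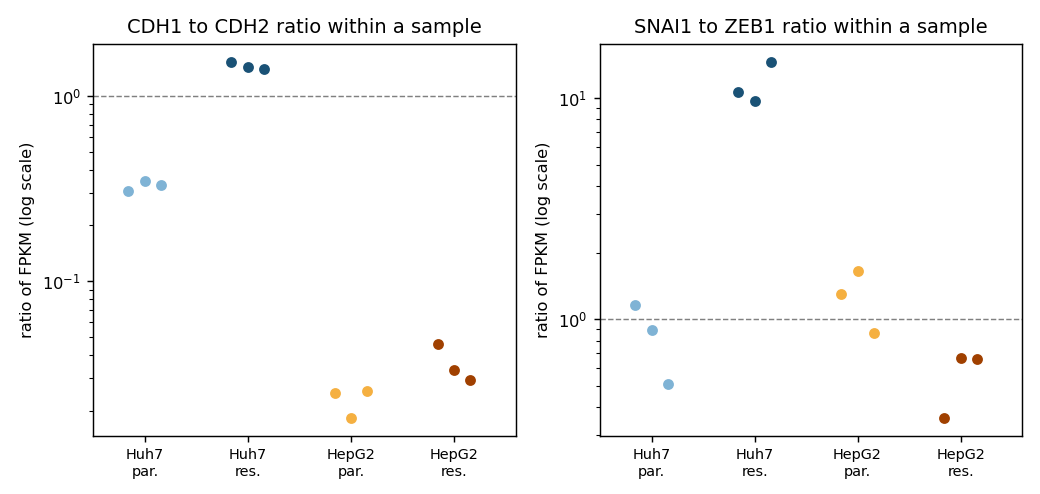
Ratio of FPKM within each of the 12 samples (points) on a log axis, CDH1 to CDH2 on the left and SNAI1 to ZEB1 on the right; the dashed line marks a ratio of 1. The CDH1 to CDH2 ratio crosses 1 between parental and resistant Huh7, and the SNAI1 to ZEB1 ratio is higher in resistant Huh7 and lower in resistant HepG2 than in the parental cells.

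FN1 (ENSG00000115414, chr2:215360440-215436172, minus strand) was by far the most abundant of these genes, ranking 71 and 48 from the top of all Ensembl rows in resistant and parental Huh7 and 14 and 10 in HepG2. In Huh7, it had 305.3, 296.1 and 300.9 FPKM in resistant and 288.7, 256.5 and 229.1 FPKM in parental cells. In HepG2, it had 906.5, 989.2 and 988.0 FPKM in resistant and 1371.2, 1126.8 and 943.6 FPKM in parental cells. The resistant Huh7 samples lay just above the parental ones, whereas the HepG2 groups overlapped, with a wide spread among the parental samples. Neither log2 fold change passed the test, with 0.23 in Huh7 (SE 0.125, adjusted p = 0.137) and -0.24 in HepG2 (SE 0.175, adjusted p = 0.358), nor did their difference of 0.47 (SE 0.205, adjusted p = 0.0703). FN1 took 0.547% and 0.492% of the reads in resistant and parental Huh7, and 1.79% and 2.09% in HepG2. Of 6 other rows that overlap FN1, 5 lie on the opposite strand, with group means of at most 57.5 FPKM.

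VIM (ENSG00000026025, chr10:17228259-17237593, plus strand) was rare in the tables. It had 0.605, 0.552 and 0.456 FPKM in the parental Huh7 samples and 0.0204, 0.0101 and 0.0306 FPKM in the resistant ones. In reads, these are 56, 48 and 38 against 2, 1 and 3, and in all HepG2 samples VIM was listed at 0. The parental Huh7 cells were thus the one group with more than a few reads. The ratio of parental to resistant Huh7 was 26.6 (95% exact interval 11.9 to 73.7, from 142 and 6 reads, counting error only), and the exact permutation test gave p = 0.1. As VIM failed the filter in both lines, it was tested on reads without a filter, where limma-voom gave a log2 fold change of -4.56 in Huh7 (SE 0.532, adjusted p = 2.68e-08), beside 27.3% of all genes called in that fit. Counting 3 reads over the 3 HepG2 parental samples as the upper limit, VIM was at least 38.0-fold higher in parental Huh7 than in parental HepG2.

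The VIM row shares its position with 2 rows of noncoding genes on the opposite strand. The one with the larger overlap, NONHSAG005323.3 (chr10:17231003-17237311), covers 67.6% of the VIM span. It had 3.83, 3.73 and 3.67 FPKM in parental Huh7, 0.134, 0.419 and 0.417 FPKM in resistant Huh7, and means of 0.0252 and 0.0270 FPKM in parental and resistant HepG2. Its level was thus above that of VIM in each Huh7 sample, and all its resistant Huh7 values were below the parental ones. How reads that overlap several rows were assigned, and whether strand was used, is not given in the sources used here. Reads of VIM and of this row therefore cannot be told apart, and the level of VIM is uncertain. Of 22 widely expressed genes looked up after these values had been seen, 11 had a mean over 100 FPKM in the 12 samples and 2 a mean under 5 FPKM. The latter were B2M (1.10 to 2.45 FPKM) and RPS18, a ribosomal protein gene that all cells use (1.09 to 3.83 FPKM), so that a low value in these tables need not mean a low RNA level.

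**Figure D3:**
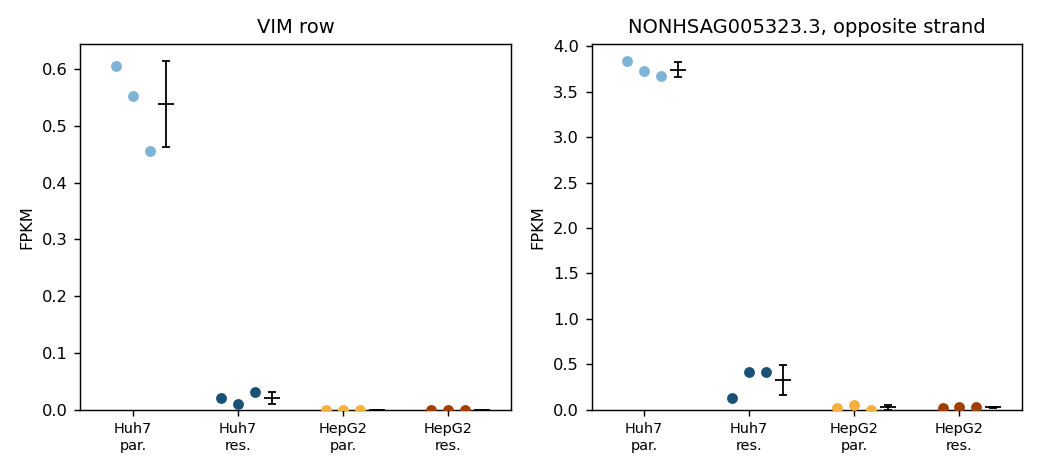
FPKM of the VIM row (left) and of the overlapping noncoding row NONHSAG005323.3 on the opposite strand (right) in each of the 12 samples, with the group mean and SD (n = 3) on linear axes from 0. Both rows are highest in parental Huh7, lower in resistant Huh7 and at or near 0 in HepG2.

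ZEB1 (ENSG00000148516, chr10:31318495-31529814, plus strand), a zinc finger and homeodomain repressor of CDH1, had its lowest level in resistant Huh7. There the samples had 2.09, 1.74 and 1.48 FPKM, against 6.50, 7.74 and 10.3 FPKM in parental Huh7. The HepG2 samples had 5.19, 3.75 and 3.61 FPKM when resistant and 5.96, 3.85 and 5.18 FPKM when parental. The Huh7 groups were far apart, whereas the HepG2 groups overlapped and lay between them. ZEB1 fell in resistant Huh7 by 1.71 on the log2 scale (SE 0.165, adjusted p = 6.99e-05). The log2 fold change in HepG2 was -0.21 (SE 0.189, adjusted p = 0.46), and the difference between the lines of -1.51 passed the test (SE 0.260, adjusted p = 0.000493), as did 56.3% of the 10688 genes tested for it (24.1% with a positive and 32.2% with a negative difference). With a trend of the Huh7 fold changes with GC content removed, as described further on, the Huh7 value was -0.95 and no longer beyond 1, and the difference was -0.65. That fit used the pseudocount of 1 and was not run at another. With the GC trend kept, the Huh7 value was -2.13 at a pseudocount of 0.1 and -2.25 by limma-voom on reads with no filter. Of the 5 rows that overlap ZEB1, NONHSAG005551.2 on the opposite strand had means of 0.468 and 3.66 FPKM in resistant and parental Huh7 and 3.24 and 1.79 FPKM in HepG2. NONHSAG005552.2 on the same strand, over 0.124% of the ZEB1 span, had 1.67 and 4.60 FPKM in resistant and parental Huh7 and 3.59 and 2.97 FPKM in HepG2. The part of these rows in the ZEB1 value was not tested.

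Promoter sequence was at hand for 5 of the 8 genes, from RefSeq on GRCh38.p14, as windows of 250 bases before to 50 after a start. It was not at hand for CDH1, SNAI1 and SNAI2. CAGGTG and its reverse complement CACCTG, the E-box letters that ZEB and SNAI proteins are known to bind, were searched on both strands. Of 35116 such windows, 20.6% held the motif, 3.49% held it 2 or more times and 0.635% held it 3 or more times. These shares are per window, and no share was counted for genes with as many windows as ZEB1. ZEB1 has 7 windows, of which one held the motif once and another 3 times, at 242 and 85 bases before the start and 34 bases after it. The 2 windows of CDH2, and those of VIM, FN1 and ZEB2, held none. The 250 bases before the start are shown for the ZEB1 window with most matches (chr10:31318966-31319215, plus strand) and for CDH2 (chr18:28177131-28177380, minus strand), the tested genes with a negative log2 fold change in Huh7, with the motif in capitals.
ZEB1 promoter: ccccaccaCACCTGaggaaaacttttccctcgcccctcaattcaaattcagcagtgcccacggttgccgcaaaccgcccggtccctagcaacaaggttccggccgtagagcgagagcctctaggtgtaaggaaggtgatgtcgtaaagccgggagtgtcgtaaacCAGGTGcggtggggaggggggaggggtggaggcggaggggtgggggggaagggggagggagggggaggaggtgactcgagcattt
CDH2 promoter: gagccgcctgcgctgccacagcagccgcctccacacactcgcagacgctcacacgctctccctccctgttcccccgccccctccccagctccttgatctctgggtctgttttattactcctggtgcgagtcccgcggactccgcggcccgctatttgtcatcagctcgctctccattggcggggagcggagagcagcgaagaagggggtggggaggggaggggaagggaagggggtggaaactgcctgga
A match is a description of letters and no binding was measured.

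SNAI1 (ENSG00000124216, chr20:49982999-49988886, plus strand), the Snail zinc finger repressor of CDH1, moved in opposite directions in the 2 lines. In Huh7, it had 22.2, 16.9 and 21.5 FPKM in resistant and 7.57, 6.90 and 5.25 FPKM in parental cells. In HepG2, it had 1.86, 2.50 and 2.38 FPKM in resistant and 7.77, 6.37 and 4.49 FPKM in parental cells. The parental levels of the lines overlapped, all resistant Huh7 samples were above them and all resistant HepG2 samples below them. SNAI1 rose in resistant Huh7 by a log2 fold change of 1.49 (SE 0.154, adjusted p = 9.28e-05) and fell in resistant HepG2 by 1.13 (SE 0.196, adjusted p = 0.00689). The difference of 2.62 between the lines passed the test (SE 0.258, adjusted p = 1.28e-05). Without replicate 1 of parental HepG2, the fall in HepG2 was 0.98 on the log2 scale and no longer beyond 1 (adjusted p = 0.027). With the GC trend removed, the rise in Huh7 was 0.95 and likewise within 1. No other row of the tables overlaps SNAI1. In resistant Huh7, SNAI1 and CDH1, a gene it is known to repress, were thus both at their highest.

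SNAI2 (ENSG00000019549, chr8:48917604-48921740, minus strand), the Slug repressor, was rare, with 0.449, 0.597 and 0.448 FPKM in parental and 0.0212, 0.0626 and 0.0847 FPKM in resistant Huh7. These are 20, 25 and 18 reads against 1, 3 and 4 reads, with no overlap, and SNAI2 was listed at 0 in all HepG2 samples. The ratio of parental to resistant Huh7 was 8.85 (95% exact interval 4.23 to 21.4, from 63 and 8 reads, counting error only), with p = 0.1 in the exact permutation test. The limma-voom fit without a filter gave a log2 fold change of -3.12 (SE 0.562, adjusted p = 2.83e-05). Against the same limit of 3 reads, the listed SNAI2 values were at least 17.0-fold higher in parental Huh7 than in parental HepG2. As for VIM, a low listed value need not mean a low RNA level. The SNAI2 reads take the smallest value as 1 read, which gives a length of 2485 bases, against 3392 in GENCODE. ZEB2 (ENSG00000169554, chr2:144364364-144524583, minus strand), the relative of ZEB1, had 0.00631 to 0.0334 FPKM over all samples, from 15 to 29 reads per group. The ZEB2 groups overlapped in both lines, with a ratio of parental to resistant of 1.42 in Huh7 (95% exact interval 0.792 to 2.57) and 1.95 in HepG2 (0.976 to 4.03), so that a change was not detectable at this depth.

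The ratio of SNAI1 to ZEB1 within a sample shows how far the pair separated. In Huh7, it was 10.6, 9.73 and 14.6 in resistant and 1.16, 0.892 and 0.511 in parental samples, a 14.2-fold difference. The ratio is not corrected for GC content, and with the GC trend removed the Huh7 log2 fold changes of SNAI1 and ZEB1 were 0.95 and -0.95, in place of 1.49 and -1.71. In HepG2, it was 0.358, 0.666 and 0.659 in resistant and 1.30, 1.66 and 0.866 in parental samples, a 2.28-fold lower ratio. Resistant and parental samples were apart in both lines, with p = 0.1 in each exact permutation test, the smallest that the design allows. In parental cells of both lines the ratio lay around 1, between 0.511 and 1.66.

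In Huh7, fold changes rose with the GC content of the transcript, with a Spearman correlation of 0.617 across 12545 genes, which are not independent replicates, and of 0.039 across 11756 genes in HepG2. SNAI1 has 58.2% GC, CDH1 48.6%, CDH2 45.0%, FN1 42.2% and ZEB1 38.5%, against a median of 46.7% over the Huh7 genes. With the GC trend of each library removed, CDH1 was still called in Huh7, at 1.38 (adjusted p = 1.04e-05). ZEB1 and SNAI1, the ends of this GC range, kept their directions but lost their calls by fold (adjusted p = 0.000588 and 0.000129). ZEB1 was at 1.77 FPKM in resistant Huh7, where the pseudocount of 1 also shrinks its change. FN1 in turn passed an adjusted p of 0.05 at 0.66 (adjusted p = 0.00344). CDH2 was at -0.32 in Huh7 (adjusted p = 0.0145) and -0.31 in HepG2 (adjusted p = 0.0291), with a difference of -0.06 (adjusted p = 0.684). SNAI1 in HepG2 was -1.25 (adjusted p = 0.00246), and the differences between the lines were 2.20 for SNAI1 (adjusted p = 8.59e-06) and -0.65 for ZEB1 (adjusted p = 0.00716). The part of GC content in the Huh7 values was not tested further.

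**Figure D4:**
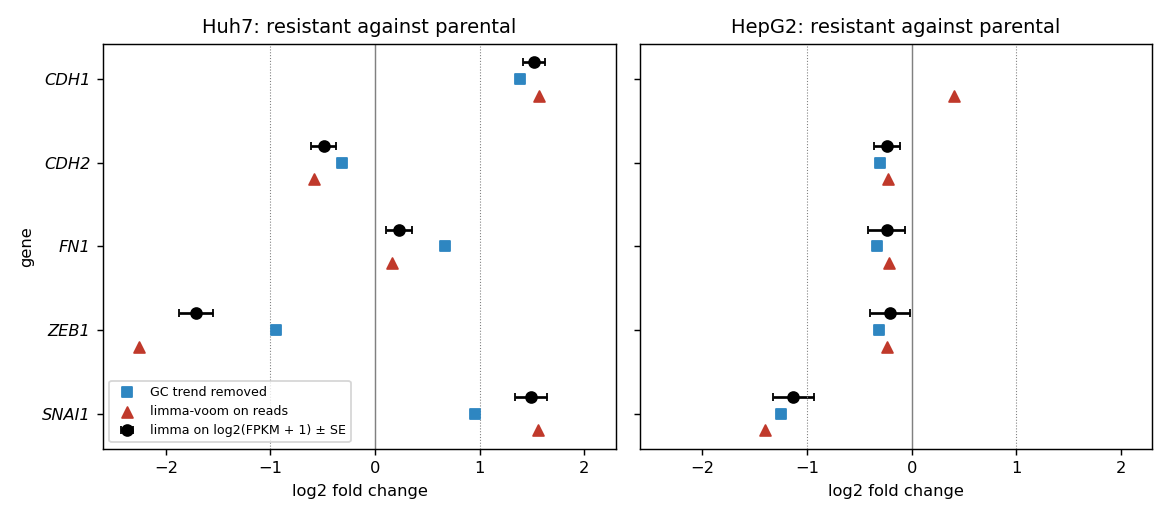
Log2 fold change of resistant against parental cells for the genes tested, by limma on log2(FPKM + 1) with its SE (black), with the GC trend removed (blue) and by limma-voom on reads with no filter (red); dotted lines mark a change of 1. In HepG2, CDH1 did not pass the filter and has the limma-voom value alone, and SNAI1 lies on opposite sides of 0 in the 2 lines.

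The lines were also compared with each other. In one fit of all 12 samples, in which 30.2% of genes were called between the parental lines, CDH1 was higher in parental Huh7 than in parental HepG2 by a log2 difference of 2.35 (adjusted p = 9.66e-09), and FN1 was lower by 2.14 (log2 difference -2.14, adjusted p = 1.23e-07). ZEB1 (0.61, adjusted p = 0.0124) and CDH2 (-0.40, adjusted p = 0.00619) passed the adjusted p but not the fold threshold, and SNAI1 had a difference of 0.08 (adjusted p = 0.702). As CDH1 was near or below 1 FPKM in HepG2, the pseudocount of 1 understates its differences, which were 3.27 between the parental and 4.53 between the resistant lines at a pseudocount of 0.1. Between the resistant lines, with 26.6% of genes called, CDH1 (3.69, adjusted p = 2.38e-10) and SNAI1 (2.71, adjusted p = 1.61e-07) were higher in Huh7, and FN1 was lower (-1.67, adjusted p = 1.16e-06). ZEB1 (-0.90, adjusted p = 0.00125) and CDH2 (-0.65, adjusted p = 0.000233) again passed the adjusted p alone, both being lower in Huh7. CDH1 was thus in the order resistant Huh7, parental Huh7 and then HepG2, whose groups overlapped. ZEB1 was in the order parental Huh7, HepG2, whose groups overlapped, and resistant Huh7. The group means of CDH2 and FN1 were lowest in Huh7, whether resistant or parental.

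Lists of related genes were counted in the same fits, and each list is given by its counts beside the background above. For Huh7 counts with the GC trend removed, the background was 703 genes called higher and 787 lower of 12554. The median log2 fold change of all tested genes was -0.04 in Huh7 and 0.12 in HepG2. All list values, also those with the GC trend removed, used the pseudocount of 1. It shrinks the changes of genes near or below 1 FPKM in a group, so that a value within 1 need not mean a small change in FPKM. Of 20 other cadherins, 4 were tested in Huh7, and CDH6 (from 2.24 to 0.0552 FPKM; log2 fold change -1.61) and CDH19 (from 2.15 to 0.114 FPKM; -1.48) fell in resistant cells. On this scale, both were within a change of 1 with the GC trend removed, at -0.96 and -0.49. Both were below 1 FPKM in resistant cells, where the pseudocount of 1 shrinks each of these changes. In HepG2, CDH16 was the one tested, and it rose from 0.470 to 2.46 FPKM (1.23, adjusted p = 0.00436). Of 12 tested partners of the cadherin-catenin complex, 2 rose and 2 fell in Huh7. JUP, the junctional catenin plakoglobin, rose from 17.8 to 56.1 FPKM (1.61) and the adhesion receptor NECTIN2 from 21.8 to 50.7 FPKM (1.18), whereas NECTIN3 fell from 16.2 to 4.20 FPKM (-1.72) and the catenin CTNND2 from 6.21 to 2.02 FPKM (-1.26). In HepG2, NECTIN3 alone of 12 was called, and it rose from 1.54 to 4.57 FPKM (1.10). With the GC trend removed, NECTIN2 (0.64) and NECTIN3 (-0.98) in Huh7 and NECTIN3 in HepG2 (0.99) were within a change of 1.

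Of the genes of epithelial junctions and keratins, 11 of 24 tested were called higher and 3 lower in Huh7, with a median of 0.80. KRT19, a keratin of bile duct and progenitor cells, rose from 7.18 to 70.4 FPKM (3.12, adjusted p = 7.81e-06), and the tight junction gene CLDN4 rose from 0.709 to 9.65 FPKM (2.64). The desmosomal genes PKP2 (from 30.4 to 13.3 FPKM; -1.14) and DSC2 (from 3.00 to 0.861 FPKM; -1.10) fell. In HepG2, 0 of 20 were higher and CLDN4 alone fell, from 16.1 to 7.15 FPKM (-1.06, adjusted p = 0.0106). Of the epithelial regulators opposed to EMT, 6 of 12 rose and 0 fell in Huh7, with a median of 0.92. KLF5, a zinc finger factor of epithelial cells, rose from 23.1 to 91.5 FPKM (1.94, adjusted p = 6.16e-06), and ESRP2, an epithelial splicing regulator, rose from 4.32 to 19.0 FPKM (1.90, adjusted p = 6.64e-06). In HepG2, 3 of 10 fell, among them KLF5 from 25.5 to 4.06 FPKM (-2.38, adjusted p = 0.000157). The call of ELF3 (-1.10) among these 3 was lost when most of the samples were left out singly. With the GC trend removed, the Huh7 counts were 7 higher and 2 lower for junctions and keratins and 3 higher for the regulators, and DSC2 was at -0.37.

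Of 9 other EMT transcription factors and cofactors tested, 2 rose and 2 fell in Huh7. The rising genes were ID3 (from 51.5 to 131.1 FPKM; 1.33) and ID1 (from 99.7 to 205.5 FPKM; 1.04), inhibitors of basic helix-loop-helix proteins. The falling genes were TCF4 (from 5.36 to 1.66 FPKM; -1.25) and TCF12 (from 28.4 to 11.8 FPKM; -1.20), which encode E proteins of that family. None of the 4 was beyond 1 with the GC trend removed. In HepG2, the E protein gene TCF3 alone of 8 was called, from 1.53 to 4.46 FPKM (1.02, adjusted p = 0.0463), a call that was lost with each of 5 of the 6 samples left out in turn. Of the cytoskeletal genes beside VIM, 2 of 9 rose and 2 fell in Huh7, and 1 of 8 rose in HepG2. FSCN1, an actin bundling protein of motile cells, rose in both lines, from 2.02 to 21.1 FPKM in Huh7 (2.86, adjusted p = 6.88e-06) and from 26.0 to 61.9 FPKM in HepG2 (1.19, adjusted p = 0.00884). In Huh7, S100A4 rose from 6.04 to 15.3 FPKM (1.22), and CALD1 (27.7 FPKM in parental cells; -1.25) and TPM1 (from 1.94 to 0.366 FPKM; -1.11) fell, the last pair being actin filament binding proteins. S100A4 (0.73) and CALD1 (-0.76) in Huh7 and FSCN1 in HepG2 (0.89) were within 1 with the GC trend removed.

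Of the matrix and surface genes of mesenchymal cells, 3 of 16 rose and 3 fell in Huh7, and 2 of 9 fell in HepG2. In Huh7, the small proteoglycan gene BGN rose from 1.16 to 5.13 FPKM (1.50) and the matrix gene FBLN1 from 38.2 to 97.4 FPKM (1.34), whereas thrombospondin THBS1 fell from 15.3 to 2.76 FPKM (-2.12) and fibrillin FBN1 from 1.85 to 0.161 FPKM (-1.29). With the GC trend removed, none of this list was called higher in Huh7 and 3 were called lower. In HepG2, the ectonucleotidase NT5E fell from 23.5 to 10.2 FPKM (-1.10). Of the receptors and assembly partners of fibronectin, 3 of 14 rose and 2 fell in Huh7. The integrin chain ITGA3 rose from 0.281 to 2.32 FPKM (1.37) and the integrin activator FERMT1 from 1.71 to 5.91 FPKM (1.35). ITGAV fell from 98.7 to 21.5 FPKM (-2.13, adjusted p = 1.4e-05) and its partner ITGB1 from 55.6 to 25.7 FPKM (-1.07), and ITGA3 (0.85) and ITGB1 (-0.42) were within 1 with the GC trend removed. In HepG2, 1 of 12 was called, the heparan sulphate proteoglycan SDC4, which fell from 202.7 to 25.1 FPKM (-2.94, adjusted p = 0.000157).

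Of the signals known to induce EMT, 5 of 15 fell and 0 rose in Huh7, with a median of -0.36, and 2 were called lower with the GC trend removed. TGFB2, a transforming growth factor, fell from 4.45 to 0.929 FPKM (-1.50). The Notch ligand JAG1 fell in both lines, from 58.7 to 23.7 FPKM in Huh7 (-1.27, adjusted p = 5.08e-05) and from 95.9 to 37.5 FPKM in HepG2 (-1.33, adjusted p = 0.000492). In HepG2, the growth factor gene BMP4 rose from 33.7 to 75.0 FPKM (1.13), and 1 of 13 rose and 1 fell. Of the genes that control stability or repression by the EMT factors, 2 of 18 fell in Huh7 and 0 of 17 were called in HepG2. USP27X, a deubiquitinase known to stabilise SNAI1, fell in Huh7 from 6.15 to 0.940 FPKM (-1.88, adjusted p = 1.35e-05), and GSK3B, a kinase that marks SNAI1 for degradation, fell from 37.7 to 18.1 FPKM (-1.03). GSK3B was within 1 with the GC trend removed (-0.58), as was TGFB2 (-0.77).

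**Figure D5:**
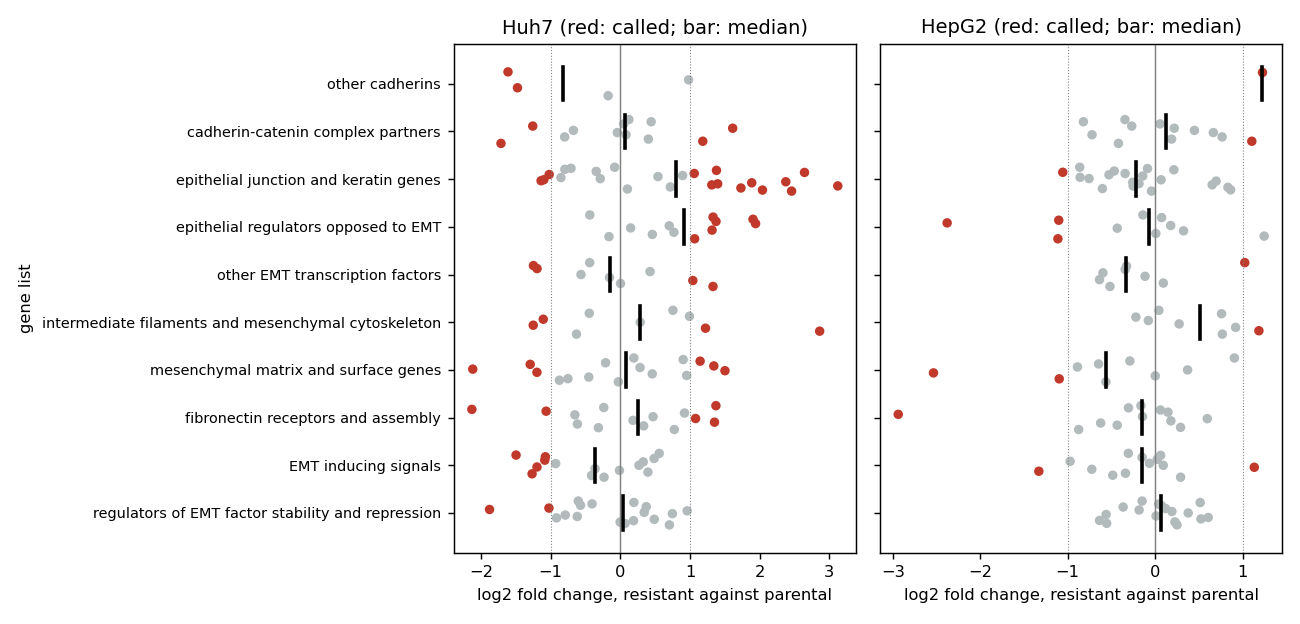
Log2 fold change of resistant against parental cells for each tested gene (points, red if called) of 10 gene lists in Huh7 and HepG2; the vertical bar is the list's median and dotted lines mark a change of 1. Junction genes and epithelial regulators lie mostly to the right in Huh7, with medians of 0.80 and 0.92, and to both sides of 0 in HepG2.

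Among the cell type markers, AFP, the fetal liver protein, fell in both lines, from 5332 to 2291 FPKM in Huh7 (-1.21) and from 1394 to 366.3 FPKM in HepG2 (-1.91). AHSG rose in Huh7 (1.11), FGB fell in HepG2 (-1.98), and the stellate cell marker RGS5 fell in Huh7 from 1.59 to 0.161 FPKM (-1.16). The Huh7 calls of AFP (-0.47), AHSG (0.68) and RGS5 (-0.28) were lost with the GC trend removed. RGS5 was below 1 FPKM in resistant Huh7, where the pseudocount of 1 shrinks its change. Of the fibroblast markers, PDGFRB was the highest in each group, at 2.07 to 3.58 FPKM, and of the leukocyte and endothelial markers none was called.

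The genes whose levels ran most like those of a called gene were found by the root mean square difference of log2(FPKM + 1), each gene centred on its line, over the 12 samples. The median is given for scale only, as the nearest genes lie below it by construction. A relation between the genes was not tested. For CDH1, these were MEST (0.112), ZNF304 (0.123) and PDHA1 (0.124), against a median of 0.607 over 10688 genes. For ZEB1, they were N4BP2 (0.0755), RAB8B (0.0821) and PCGF5 (0.0838), against a median of 0.705. For SNAI1, they were ELF3 (0.138), GPR3 (0.143) and ETS2 (0.143), against a median of 0.763. ELF3, an epithelial ETS factor, is also one of the listed epithelial regulators, with means of 6.05 and 1.73 FPKM in resistant and parental Huh7 and 0.805 and 3.09 FPKM in HepG2.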

How the data were processed

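RNA of 12 samples was measured, 3 for each of 4 groups taken from the sample labels. The deposited values are decimals of unstated unit, treated as FPKM. The authors had made them by steps not given in the sources used here, on GRCh38 with reads from bcl2fastq per the labels. The product of value and exon length (GENCODE release 29) is a whole multiple of a fixed step in each sample. With that step, 96.39% of values of up to 2000 reads were within 0.05 of a whole read, which gives the depth. For SNAI2, the smallest value was taken as 1 read. The labels name NEBNext Ultra libraries and Qiagen RNA extraction and the methods TRIzol.

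Analysis used Python 3.11.15 and R 4.3.3 with limma 3.58.1 (empirical Bayes with a trend, pseudocount 1), per line, with the interaction and the contrasts between lines in all 12 samples. Benjamini-Hochberg adjustment was over all genes tested. The fit was tested on simulated data. Intervals and floors (3 reads over a group) cover counting error only. Ratios of rare genes have exact binomial intervals. Alternatives were another pseudocount (0.1), no filter, scaling by median ratio or upper quartile, limma-voom on reads, removal of a lowess GC trend (span 0.3), no variance trend, all samples in one fit, a replicate block and leaving out each sample. Fits of limma-voom without a filter and of the interaction without the GC trend were chosen after seeing the data. The genes, lists and tests were chosen with earlier results of these data known. List genes named are those called in both lines in one direction and the 2 largest changes per direction and line, with a group mean of at least 1 FPKM; for each called member, the 3 nearest genes are named. Some listed genes that meet this rule are counted but not reported here by name. The list of antisense and host transcripts matched 0 of 9 symbols. NONCODE rows (71462) were used where they overlap a member.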

Additional observations from a re-analysis of the deposited data

Results flagged for a closer look

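The genes below were kept because their change from parental to resistant cells differed between Huh7 and HepG2. The measure was the interaction of line and resistance in limma over all 12 samples. The list genes had been named for large changes within a line, so that their passing is partly set by that choice. JAG1 (0.06, adjusted p = 0.735), NT5E (0.22, adjusted p = 0.502) and S100A4 (0.30, adjusted p = 0.301) were named by the same rule and did not pass. Values are Huh7 minus HepG2 on the log2 scale, and 56.3% of all genes tested passed this test at an adjusted p under 0.05. Among the EMT genes themselves, SNAI1 differed by 2.62 (adjusted p = 1.28e-05) and ZEB1 by -1.51 (adjusted p = 0.000493). CDH1 did not pass the filter of this test in HepG2. By limma-voom without a filter it differed by 1.17 (adjusted p = 0.00339), in a fit where 8457 genes passed. The log2 ratio of SNAI1 to ZEB1 rose by 3.82 in resistant Huh7 and changed by -1.19 in resistant HepG2, with every sample of a line on one side of its parental samples, and that difference was not tested. With the GC trend removed, the Huh7 changes of SNAI1 and ZEB1 were 0.95 and -0.95, in place of 1.49 and -1.71.

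Junction genes differed in both directions. CLDN4 had 3.70, KRT19 2.29, JUP 1.88 and NECTIN2 1.00, whereas NECTIN3 had -2.82, PKP2 -1.84 and DSC2 -1.17. Epithelial regulators had positive differences, with 4.32 for KLF5 and 1.83 for ESRP2. Among the transcription factors and their cofactors, ID3 had 1.85, ID1 1.68, TCF12 -0.87 and TCF3 -1.47.

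For the cytoskeleton and matrix genes, the difference was 1.67 for FSCN1, -1.53 for CALD1, 1.63 for FBLN1 and -1.47 for THBS1. Fibronectin partners had 3.41 (SDC4), 1.17 (FERMT1), -1.97 (ITGAV) and -0.76 (ITGB1). BMP4 had -1.50, USP27X -1.70 and GSK3B -1.14. The liver genes AHSG, AFP and FGB had 1.16, 0.70 and 2.12. The adjusted p of the genes in this paragraph and the one before was 0.035 at most. These differences keep the GC trend, which was strong in Huh7 (Spearman correlation 0.617) and weak in HepG2 (0.039). With it removed, the Huh7 change of DSC2 went from -1.10 to -0.37 and that of ITGB1 from -1.07 to -0.42. Those of KLF5 (1.93), PKP2 (-1.12) and USP27X (-1.89) hardly moved. DSC2 and USP27X were below 1 FPKM in resistant Huh7, where the pseudocount of 1 shrinks their changes.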

How the results depend on the processing

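No alternative reversed the direction of CDH1, CDH2, FN1, ZEB1 or SNAI1 within a line. In Huh7, 3 members were called in the main fit, beside 22.6% of all genes tested, and 3 whichever sample was left out. With the GC trend removed, 1 member was called, beside 1490 of 12554 genes. By limma-voom with no filter, 5 were called (VIM and SNAI2 added), beside 27.3% of genes. In HepG2, 1 was called, beside 6.27% of genes, and leaving out each sample gave 0 to 1. Of 55 listed genes called in Huh7, 33 were no longer called with the GC trend removed, and of 16 in HepG2, 3 were not. With median-ratio scaling, FN1 in Huh7 passed an adjusted p of 0.05 (0.30, adjusted p = 0.0321). The FN1 difference between lines passed the test with the GC trend removed (0.97, adjusted p = 0.00575). It also passed without Huh7 parental replicate 1 (0.55, adjusted p = 0.0491) and without HepG2 parental replicate 3 (0.60, adjusted p = 0.0158). ZEB1 between the resistant lines was called at a pseudocount of 0.1 (-1.19). The SNAI1 difference between parental lines, 0.08, ranged from -0.10 (without HepG2 parental replicate 3) to 0.24 as each sample was left out, and was -0.01 without Huh7 parental replicate 1. Near the fold threshold, calls ended for GSK3B without Huh7 resistant replicate 1 or 3 or parental replicate 2 (smallest change -0.97) and with median-ratio scaling (-0.95), for ITGB1 without Huh7 resistant replicate 1 and with median-ratio scaling (-0.99), for ITGB1 and AHSG without Huh7 parental replicate 3 (-0.91 and 0.99), for ID1 without Huh7 resistant replicate 3 or parental replicate 2 or 3 (smallest change 0.97) and by limma-voom (0.98), and for CLDN4 and NT5E without HepG2 parental replicate 1 (-0.91 and -0.95). NECTIN3 and CLDN4 in HepG2 were 0.92 and -0.92 without HepG2 resistant replicate 1. TCF3 in HepG2 was lost without each sample but HepG2 resistant replicate 1 (0.79 to 1.12, with adjusted p = 0.0678 or more). The ELF3 call in HepG2 was lost without each sample but HepG2 parental replicate 3 (-1.20 to -0.84, with adjusted p = 0.0503 or more). It was also lost with no filter (adjusted p = 0.118). AFP in Huh7 was lost with no filter (adjusted p = 0.0744).

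Of all genes, 2838 were called in Huh7, against 1490 (703 higher, 787 lower) with the GC trend removed, 4276 (2849 lower) by limma-voom and 7008 (2267 higher, 4741 lower) by limma-voom with no filter. In HepG2, 737 were called (387 higher, 350 lower), against 1177 (685 higher) by limma-voom and 1908 (1074 higher, 834 lower) with no filter. At a pseudocount of 0.1, 612 were higher. Median-ratio scaling gave 290 higher and 429 lower. With the replicate number as a block, 2841 and 779 genes were called in Huh7 and HepG2 and 6376 for the difference, and no call of a member changed. Deviations of same-numbered samples correlated at -0.228 to 0.084 in Huh7 and -0.011 to 0.437 in HepG2. Those of unlike-numbered samples correlated at -0.335 to 0.282 in Huh7 and -0.423 to 0.21 in HepG2. With 3 samples per group, these values cannot decide whether the numbers pair samples. Depth limits ZEB2, VIM and SNAI2, with at most 29, 142 and 63 reads in a group.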

Other observations

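The share of reads outside the Ensembl rows was 4.31% to 5.06% in resistant Huh7, 7.61% to 9.97% in parental Huh7, 6.22% to 7.78% in resistant HepG2 and 5.57% to 5.87% in parental HepG2. Rows of noncoding genes within FN1 on the opposite strand were abundant beside those of other members. NONHSAG078148.1 had means of 9.12 and 28.2 FPKM in resistant and parental Huh7 and 57.5 and 39.6 FPKM in HepG2, and NONHSAG078147.2 had 5.69 and 13.1 FPKM in Huh7 and 23.5 and 22.0 FPKM in HepG2. Within CDH2, NONHSAG075071.1 on the same strand had 0.556 and 4.32 FPKM in resistant and parental Huh7 and 2.82 and 1.76 FPKM in HepG2. These rows were in no comparison.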
